A study of Mus musculus with 12 samples.

Results

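The mitochondrial matrix holds its own NADPH supply and uses it to remove superoxide and hydrogen peroxide. Described here are 8 genes of this system, chosen by name from the 35275 genes of the table: Nnt, Idh2, Me3 and Mthfd2l, whose enzymes make NADPH, Sod2, whose enzyme converts superoxide to hydrogen peroxide, and Prdx3, Txn2 and Txnrd2, whose proteins pass electrons from NADPH to hydrogen peroxide. All 8 were among the 16673 genes with enough reads to be tested. The measurement was RNA-seq of brain cortex from mice aged 8 months, in 12 libraries, 3 for each of 4 genotypes.

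The groups were APP/PS1/Sirt3-/-, APP/PS1, Sirt3-/- and wild type (WT). APP/PS1/Sirt3-/- mice carry the APP and mutant human presenilin 1 transgenes and lack Sirt3. APP/PS1 mice carry the transgenes only, and Sirt3-/- mice lack Sirt3 in every cell. Libraries are numbered 1, 2 and 4 in every group. The methods give a C57BL/6 background for APP/PS1 and both 129 Sv and C57BL/6 for Sirt3-/- and for wild type, without saying which background was sequenced. No label ties a number to a litter, and the p-values measure the spread between these libraries.

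SIRT3 is a deacetylase of the mitochondrial matrix. It is known to remove acetyl groups from IDH2 and SOD2, which raises the activity of both enzymes. In brain, as elsewhere, NADPH made by NNT, IDH2 and ME3 is used by thioredoxin reductase 2 (TXNRD2) to reduce thioredoxin 2 (TXN2), which in turn reduces peroxiredoxin 3 (PRDX3). The comparisons asked whether the messenger RNA of these genes differed with the deletion of Sirt3, with the transgenes, or with both. Acetylation and enzyme activity were not measured by these libraries.

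The genotype labels were checked against the reads before the members were compared. Sirt3 had 28.6, 0.211 and 27.7 CPM (read counts scaled to library size) in libraries 1, 2 and 4 labelled APP/PS1/Sirt3-/-, 64.3, 59.0 and 60.7 CPM in APP/PS1, 0.186, 0.467 and 0.443 CPM in Sirt3-/-, and 60.8, 63.6 and 64.5 CPM in WT. Libraries 1 and 4 labelled APP/PS1/Sirt3-/- therefore held many Sirt3 reads, against their label. App had 3295, 3856 and 3479 CPM in APP/PS1/Sirt3-/- and 3614, 3794 and 1623 CPM in the libraries labelled APP/PS1, so library 4 labelled APP/PS1 lay below the 3 WT libraries (1755 to 1828 CPM). Every direction given below follows the labels, and some log2 fold changes are also given without these 3 libraries. That fit keeps only library 2 of APP/PS1/Sirt3-/- and libraries 1 and 2 of APP/PS1.

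Depth was similar in the groups, with 15251720 to 18644376 reads in genes per library. All libraries are labelled female, but the 4 libraries numbered 4 had 32.3 to 38.4 CPM of the Y-linked gene Ddx3y and at most 3.36 CPM of Xist, against 406.8 to 671.9 CPM of Xist in the other 8. The markers of brain regions also differed between libraries. The mean of 9 cortical markers was 5.90 to 6.21 log2 CPM in APP/PS1/Sirt3-/-, 6.15 to 6.39 in APP/PS1, 5.54 to 6.60 in Sirt3-/- and 6.76 to 6.83 in WT. The mean of 8 thalamic markers was 2.81 to 4.70 log2 CPM in APP/PS1/Sirt3-/-, 4.06 to 4.38 in APP/PS1, 1.78 to 3.52 in Sirt3-/- and 1.81 to 2.19 in WT, and no thalamic marker was at 0 in a whole group. Striatal markers (7 of 8 listed were in the table) averaged 5.14 to 7.65 log2 CPM in APP/PS1/Sirt3-/- and 5.86 to 7.13 in APP/PS1. Their means were 7.61 to 8.44 in Sirt3-/- and 5.07 to 6.31 in WT. The mean of 8 choroid plexus markers was 0.711 to 3.675 log2 CPM in APP/PS1/Sirt3-/- and 3.438 to 4.245 in APP/PS1. It was -0.098 to 4.754 in Sirt3-/- and -0.102 to 4.944 in WT. Fewer cells of a type and less RNA per cell cannot be told apart in bulk tissue.

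None of the 8 genes passed an adjusted p of 0.05 in any of 7 comparisons with edgeR's quasi-likelihood test. Prdx3 and Mthfd2l came nearest, and Nnt was among the least variable genes of the table. Prdx3 was above all 3 WT libraries in all 9 libraries outside WT, as were 2.69% of the genes tested. Mthfd2l was above all 3 WT libraries in every library labelled APP/PS1 (13.3% of all genes) or APP/PS1/Sirt3-/- (13.0%). It was also above them in libraries 2 and 4 of Sirt3-/-. Of all genes tested, 0.294% were called in Sirt3-/- against WT, 0.0% in APP/PS1 against WT and 1.13% in APP/PS1/Sirt3-/- against WT. The share was 0.024% in APP/PS1/Sirt3-/- against APP/PS1, 0.0% in APP/PS1/Sirt3-/- against Sirt3-/-, 0.222% for Sirt3 deletion averaged over both backgrounds and 0.0% for the interaction. At these shares, 0 of 8 called is near the background and does not set the genes apart. The same test did not call Sirt3 itself in Sirt3-/- against WT (log2 fold change -7.39, adjusted p = 0.0745). Nor did it call App in APP/PS1 against WT (adjusted p = 0.183) or in APP/PS1/Sirt3-/- against WT (adjusted p = 0.0765). A gene that was not called may therefore still differ. With the unadjusted p under 0.05, 1 member came up in Sirt3-/- against WT (13.5% of all genes), 2 in APP/PS1 against WT (17.0%) and 2 in APP/PS1/Sirt3-/- against WT (20.1%). The other 4 comparisons began with 0 in APP/PS1/Sirt3-/- against APP/PS1 (4.86% of all genes) and 0 in APP/PS1/Sirt3-/- against Sirt3-/- (11.4%). For the averaged deletion there were 2, Prdx3 and Me3 (12.3%), and for the interaction 1, Prdx3 (6.48%). DESeq2 on all 12 libraries also called 0 of 8 in each of the 7 comparisons, while it called 433 genes in all in Sirt3-/- against WT, 502 in APP/PS1 against WT and 1050 in APP/PS1/Sirt3-/- against WT. Without the 3 libraries that go against their labels only library 2 of APP/PS1/Sirt3-/- is left, so no separate count of calls is given for that fit. It is among the alternatives counted further below.

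**Figure D1:**
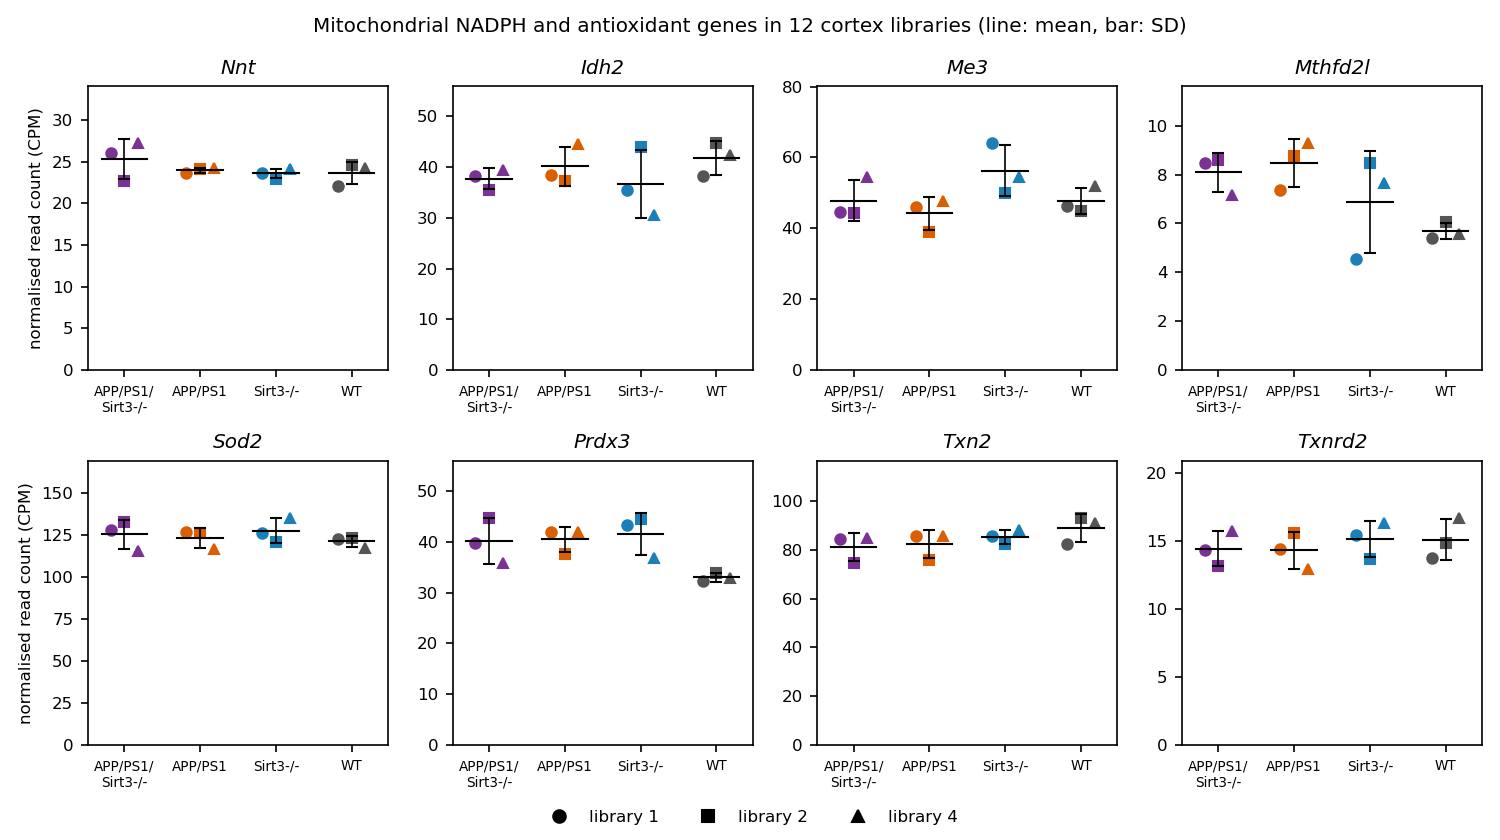
Normalised read count (CPM) of the 8 genes in each library, by group, with the mean (line) and SD (bar) of 3 libraries. Every axis starts at 0. Prdx3 in the 9 libraries outside WT lies at 35.8 to 44.8 CPM, above all 3 WT libraries (as for 2.69% of the genes tested), whereas Nnt spans 22.1 to 27.3 CPM over all 12.

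Nnt encodes the nicotinamide nucleotide transhydrogenase of the inner membrane, which uses the proton gradient to make NADPH from NADH. The gene (ENSMUSG00000025453) lies on the minus strand of chromosome 13, from 119335448 to 119408997 of GRCm38. Nnt had 26.0, 22.6 and 27.3 CPM in libraries 1, 2 and 4 of APP/PS1/Sirt3-/-, 23.7, 24.1 and 24.2 CPM in APP/PS1, 23.6, 22.9 and 24.1 CPM in Sirt3-/-, and 22.1, 24.6 and 24.3 CPM in WT. The underlying reads numbered 450, 429 and 471 in APP/PS1/Sirt3-/-, 442, 374 and 424 in APP/PS1, 381, 393 and 381 in Sirt3-/-, and 387, 370 and 382 in WT. The groups overlapped in every comparison. The highest libraries were APP/PS1/Sirt3-/- 4 and 1, the same that hold Sirt3 reads against their label, and the next highest was WT library 2. The highest library was 1.23 times the lowest, and 8.96% of the genes tested had a smaller coefficient of variation over the 12 libraries (5.81% for Nnt, median 13.0%). In Sirt3-/- against WT the fold was 0.997 (95% interval 0.880 to 1.13, adjusted p = 0.989, edgeR). It was 1.01 (0.896 to 1.15) in APP/PS1 against WT, 1.07 (0.945 to 1.21) in APP/PS1/Sirt3-/- against WT, and 1.03 (0.940 to 1.12) for the averaged deletion. Without the 3 libraries that go against their labels, the log2 fold change of Nnt in APP/PS1/Sirt3-/- against WT was -0.07, against 0.10 with all 12. The -0.07 rested on library 2 of APP/PS1/Sirt3-/- alone. An interval that spans 1 does not show that the groups were alike.

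C57BL/6J mice are known to carry an Nnt allele that lacks internal coding exons and gives less transcript, while 129 strains and some other C57BL/6 substrains carry the complete gene. GRCm38 is built from C57BL/6J. Its longest Nnt model in GENCODE M21 has 17 exons, 16 of them coding, and 835 codons. Reads from the exons missing in C57BL/6J have no place on this assembly, and a count per gene does not show the exon a read came from. The allele carried by each mouse was therefore not determined here. The reads show only that the Nnt level was within 1.23 times between any 2 of the 12 libraries.

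Of the 49 other genes of the table that lie within 5 Mb of Nnt, 22 were tested. Among these, edgeR called 0 in each of the 7 comparisons. An unadjusted p under 0.05 was reached by 2 in Sirt3-/- against WT (13.5% of all genes), 4 in APP/PS1 against WT (17.0%) and 3 in APP/PS1/Sirt3-/- against WT (20.1%). The gene pattern most like that of Nnt over the 12 libraries was that of Pck1 (Pearson's r of log2 CPM 0.865), followed by Plg (0.848), Ftsj2 (0.847), Apoh (0.847) and Nradd (0.828). Pck1, Plg and Apoh rested on 3 to 39, 5 to 46 and 3 to 43 reads. When Spearman's rho chose the 5 nearest genes, 0 of these 5 were among them, and the likeness describes these libraries only.

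Idh2, the mitochondrial NADP-dependent isocitrate dehydrogenase and a known SIRT3 substrate, lies on chromosome 7 from 80094846 to 80115392. It had 38.3, 35.5 and 39.5 CPM in APP/PS1/Sirt3-/-, 38.5, 37.3 and 44.5 CPM in APP/PS1, 35.5, 43.9 and 30.7 CPM in Sirt3-/-, and 38.2, 44.8 and 42.3 CPM in WT. Library 4 of Sirt3-/- was the lowest of all, yet library 2 of that group was among the highest, so the groups overlapped. The log2 fold change was -0.19 in Sirt3-/- against WT (SE 0.12, adjusted p = 0.519) and -0.15 in APP/PS1/Sirt3-/- against WT (SE 0.12, adjusted p = 0.522), both by edgeR.

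Me3, the NADP-dependent malic enzyme of mitochondria, lies on chromosome 7 from 89632392 to 89854359. It had 44.7, 44.3 and 54.4 CPM in APP/PS1/Sirt3-/-, 46.1, 38.9 and 47.8 CPM in APP/PS1, 64.1, 50.03 and 54.5 CPM in Sirt3-/-, and 46.4, 45.0 and 51.9 CPM in WT. The highest library was Sirt3-/- library 1, and the lowest Sirt3-/- library was below the highest WT library. The log2 fold change was 0.23 in Sirt3-/- against WT (SE 0.11, adjusted p = 0.388, edgeR) and 0.17 for the averaged deletion (SE 0.08, adjusted p = 0.406). The striatal markers also differed between these 2 groups. They were at 7.88, 8.44 and 7.61 log2 CPM in Sirt3-/- libraries 1, 2 and 4 and 5.98, 5.07 and 6.31 in the WT libraries. Whether the dissected tissue had a part in the Me3 difference was not tested beyond a fit with marker means. With striatal, thalamic and choroid plexus markers as covariates the log2 fold change of Me3 in Sirt3-/- against WT was 0.27 (adjusted p = 0.940). That fit called 2 genes in all in this comparison.

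Mthfd2l encodes a methylenetetrahydrofolate dehydrogenase of the mitochondrial folate pathway that can use NADP+, and it lies on chromosome 5 from 90931196 to 91021360. It had 8.49, 8.60 and 7.17 CPM in APP/PS1/Sirt3-/-, 7.38, 8.75 and 9.30 CPM in APP/PS1, 4.53, 8.47 and 7.66 CPM in Sirt3-/-, and 5.42, 6.05 and 5.59 CPM in WT. These rest on 73 to 163 reads a library. All 3 libraries of APP/PS1/Sirt3-/- and all 3 of APP/PS1 were above all 3 of WT, as for 13.0% and 13.3% of the genes tested. Libraries 2 and 4 of Sirt3-/- were also above all 3 of WT, while Sirt3-/- library 1 was the lowest of the 12. The highest was library 4 of APP/PS1, whose App lay below the 3 WT libraries. The log2 fold change was 0.58 in APP/PS1 against WT (SE 0.20, adjusted p = 0.188), 0.51 in APP/PS1/Sirt3-/- against WT (SE 0.20, adjusted p = 0.178) and 0.28 in Sirt3-/- against WT (SE 0.20, adjusted p = 0.588), by edgeR. With edgeR on APP/PS1 and WT alone the adjusted p was 0.0452, in a fit that called 1089 of 16001 genes.

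The 4 libraries with the lowest Mthfd2l were also the 4 with the lowest thalamic markers. Sirt3-/- library 1 and WT libraries 1, 2 and 4 had thalamic marker means of 1.78, 1.81, 2.19 and 1.94 log2 CPM, against 2.81 or more in the other 8. With the striatal, thalamic and choroid plexus markers as covariates the log2 fold change of Mthfd2l was -0.10 in APP/PS1 against WT and -0.10 in APP/PS1/Sirt3-/- against WT. Neither could be told from 0 (edgeR, unadjusted p = 0.76 and 0.762). For Mthfd2l, a difference of genotype and one of dissected tissue cannot be told apart in these groups.

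**Figure D2:**
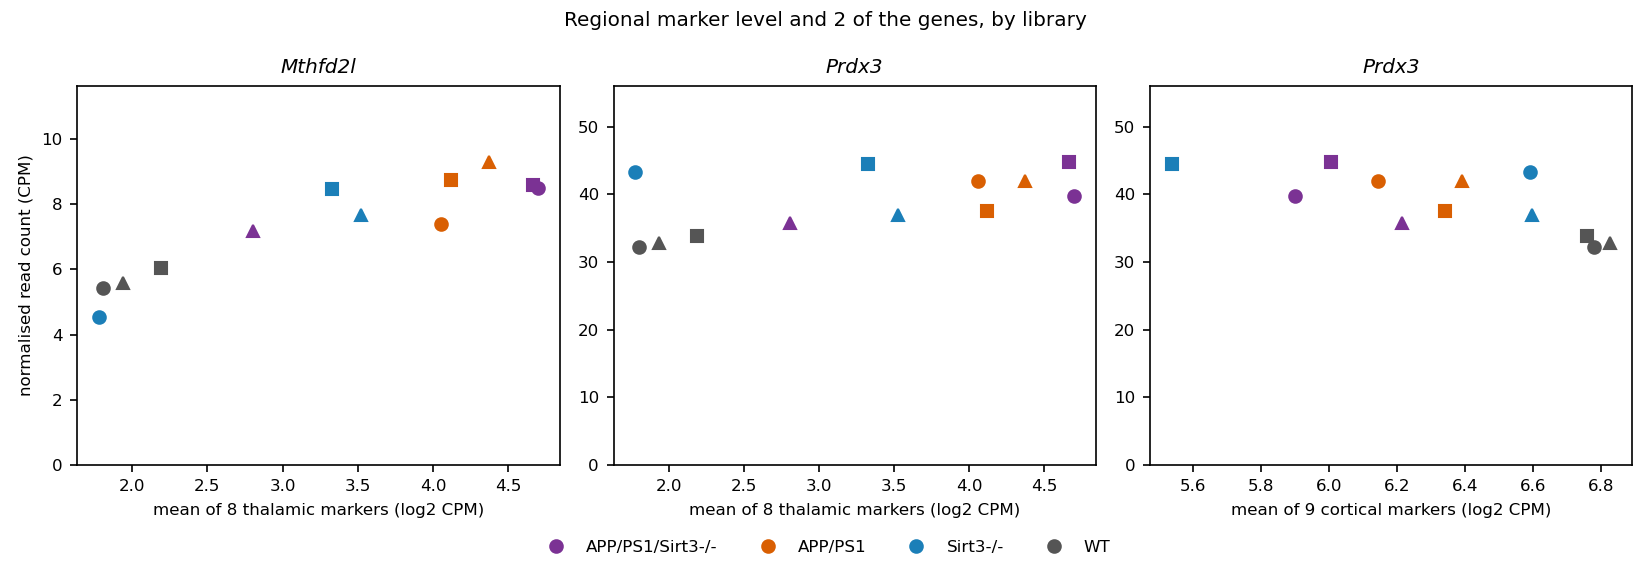
CPM of Mthfd2l (left) and Prdx3 (middle) against the mean log2 CPM of 8 thalamic markers, and of Prdx3 (right) against that of 9 cortical markers, in each of the 12 libraries, by group (circle, square and triangle are libraries 1, 2 and 4). Sirt3-/- library 1 and the 3 WT libraries have the lowest thalamic markers, where Mthfd2l is lowest in all 4 (4.53 to 6.05 CPM) but Prdx3 is 43.4 CPM in Sirt3-/- library 1 and 32.3 to 33.9 CPM in WT, and the 3 WT libraries have both the highest cortical markers and the lowest Prdx3.

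Sod2 encodes the manganese superoxide dismutase, the matrix enzyme for superoxide and a known SIRT3 substrate, and lies on chromosome 17 from 13007839 to 13018119. It had 127.9, 132.7 and 115.5 CPM in APP/PS1/Sirt3-/-, 127.1, 126.3 and 116.6 CPM in APP/PS1, 126.5, 121.0 and 135.5 CPM in Sirt3-/-, and 122.9, 123.5 and 117.6 CPM in WT. The groups overlapped, with the smallest coefficient of variation of the 8 genes (4.96%, smaller in only 4.40% of the genes tested). The fold in Sirt3-/- against WT was 1.05 (95% interval 0.948 to 1.17, adjusted p = 0.696, edgeR) and that in APP/PS1/Sirt3-/- against WT was 1.03 (0.932 to 1.15, adjusted p = 0.757).

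Idh2 and Sod2 varied in opposite directions over the libraries. Among the 28 pairs of the 8 genes theirs was the strongest relation of log2 CPM, with Pearson's r of -0.788 (permutation p = 0.00219, adjusted over the 28 pairs 0.0613) and Spearman's rho of -0.706 (permutation p = 0.0132, adjusted 0.370). It failed the correction for the number of pairs. Without the 2 libraries farthest from the median of Idh2, r was -0.772, and for deviations from the group means it was -0.746. In the 8 libraries numbered 1 and 2 r was -0.733, and the 4 libraries numbered 4 were too few for a value. The other 27 pairs had r between -0.571 and 0.449.

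Prdx3 encodes the peroxiredoxin of the matrix, which reduces hydrogen peroxide with electrons from thioredoxin 2, and lies on the minus strand of chromosome 19 from 60864051 to 60874556. It had 39.7, 44.8 and 35.8 CPM in APP/PS1/Sirt3-/-, 41.9, 37.6 and 41.9 CPM in APP/PS1, 43.4, 44.5 and 36.9 CPM in Sirt3-/-, and 32.3, 33.9 and 32.8 CPM in WT. All 9 libraries of the other groups were above all 3 WT libraries, as they were for 2.69% of the genes tested. Against WT, all 3 libraries were higher in Sirt3-/- for Prdx3 alone of the members (10.3% of all genes), in APP/PS1 for Prdx3 and Mthfd2l (13.3%) and in APP/PS1/Sirt3-/- for the same pair (13.0%). The 3 comparisons share the WT libraries, so these counts are not separate evidence.

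The log2 fold change of Prdx3 was 0.33 in Sirt3-/- against WT (SE 0.09, adjusted p = 0.151), 0.30 in APP/PS1 against WT (SE 0.09, adjusted p = 0.165) and 0.28 in APP/PS1/Sirt3-/- against WT (SE 0.09, adjusted p = 0.123), by edgeR. None passed the threshold. The fold of APP/PS1/Sirt3-/- over APP/PS1 was 0.991 (95% interval 0.862 to 1.14), and the interaction was -0.35 on the log2 scale (SE 0.13, adjusted p = 0.745). Without the 3 libraries that go against their labels the values were 0.33, 0.27 and 0.43 in Sirt3-/-, APP/PS1 and APP/PS1/Sirt3-/- against WT. The 0.43 rested on library 2 of APP/PS1/Sirt3-/- alone. The cortical markers separated the libraries in the same way as Prdx3, since their mean was at most 6.60 log2 CPM in the 9 libraries outside WT and 6.76 to 6.83 in the 3 WT libraries, which had the lowest Prdx3. With the cortical marker mean as a covariate the log2 fold changes were 0.24, 0.21 and 0.15 in Sirt3-/-, APP/PS1 and APP/PS1/Sirt3-/- against WT (adjusted p = 0.62, 0.627 and 0.876). Over all genes that fit called 14, 2 and 8. With the striatal, thalamic and choroid plexus means as covariates the log2 fold changes were 0.43, 0.30 and 0.33 (adjusted p = 0.933, 0.999 and 0.940). Over all genes that fit called 2 in each of these comparisons. For Prdx3 too, a difference of genotype and one of dissected tissue cannot be told apart. Prdx3 passed the threshold with edgeR on APP/PS1 and WT alone (adjusted p = 0.0400), a fit that called 1089 of 16001 genes. It also passed in APP/PS1/Sirt3-/- against WT without library 4 of APP/PS1/Sirt3-/- (log2 fold change 0.36, adjusted p = 0.0481), where 811 of 16985 genes were called. With all 12 libraries, 0 and 188 of 16673 genes were called in these comparisons.

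**Figure D3:**
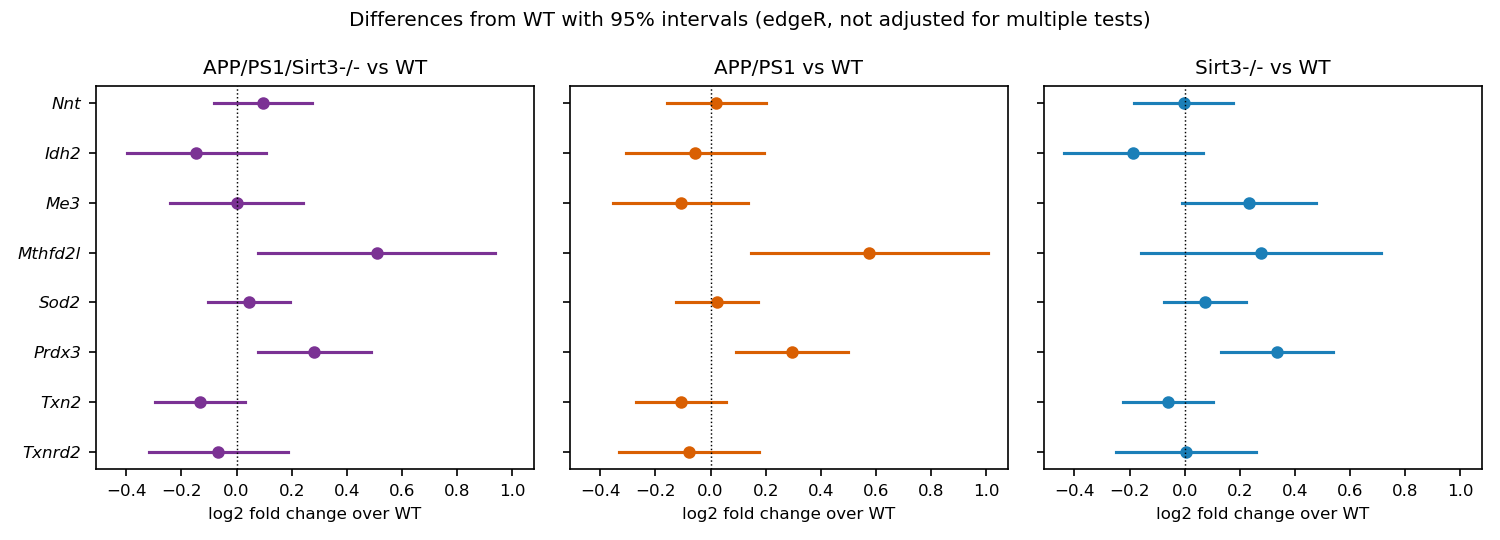
Log2 fold change over WT of the 8 genes with 95% intervals from edgeR, in APP/PS1/Sirt3-/- (left), APP/PS1 (middle) and Sirt3-/- (right), not adjusted for the number of tests. The interval of Prdx3 lies above 0 in all 3 panels and that of Mthfd2l in the left and middle panels, and no gene passed the adjusted threshold in any.

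Txn2 encodes thioredoxin 2, the electron donor of peroxiredoxin 3, and lies on chromosome 15 from 77915047 to 77929006. It had 84.2, 74.6 and 84.7 CPM in APP/PS1/Sirt3-/-, 85.8, 75.8 and 85.8 CPM in APP/PS1, 85.7, 82.3 and 88.0 CPM in Sirt3-/-, and 82.5, 93.2 and 91.0 CPM in WT. The groups overlapped, since WT library 1 was below several of the other libraries. The log2 fold change was -0.13 in APP/PS1/Sirt3-/- against WT (SE 0.08, adjusted p = 0.354) and -0.06 in Sirt3-/- against WT (SE 0.08, adjusted p = 0.790), by edgeR.

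Txnrd2 encodes thioredoxin reductase 2, which takes the electrons from NADPH, and lies on the plus strand of chromosome 16 from 18426417 to 18479073. It had 14.3, 13.1 and 15.7 CPM in APP/PS1/Sirt3-/-, 14.4, 15.6 and 12.9 CPM in APP/PS1, 15.5, 13.7 and 16.3 CPM in Sirt3-/-, and 13.7, 14.8 and 16.7 CPM in WT. The groups overlapped, and the fold in Sirt3-/- against WT was 1.00 (95% interval 0.842 to 1.20, adjusted p = 0.989, edgeR).

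Levels of different genes were compared as FPKM (reads scaled to gene length and library size). Txn2 had the highest level over the 12 libraries (41.2 ± 2.26 FPKM, SD, n = 12), followed by Sod2 (32.5 ± 1.79), Prdx3 (26.3 ± 3.41), Idh2 (21.8 ± 2.48), Me3 (10.9 ± 1.33), Txnrd2 (7.72 ± 0.574), Nnt (6.96 ± 0.420) and Mthfd2l (3.27 ± 0.749). The ranges over libraries overlapped for the neighbours Sod2 and Prdx3, Prdx3 and Idh2, and Txnrd2 and Nnt. Prdx3 was above Idh2 in 10 of 12 libraries and Txnrd2 above Nnt in 11 of 12, and each of the other neighbours kept its order in all 12.

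**Figure D4:**
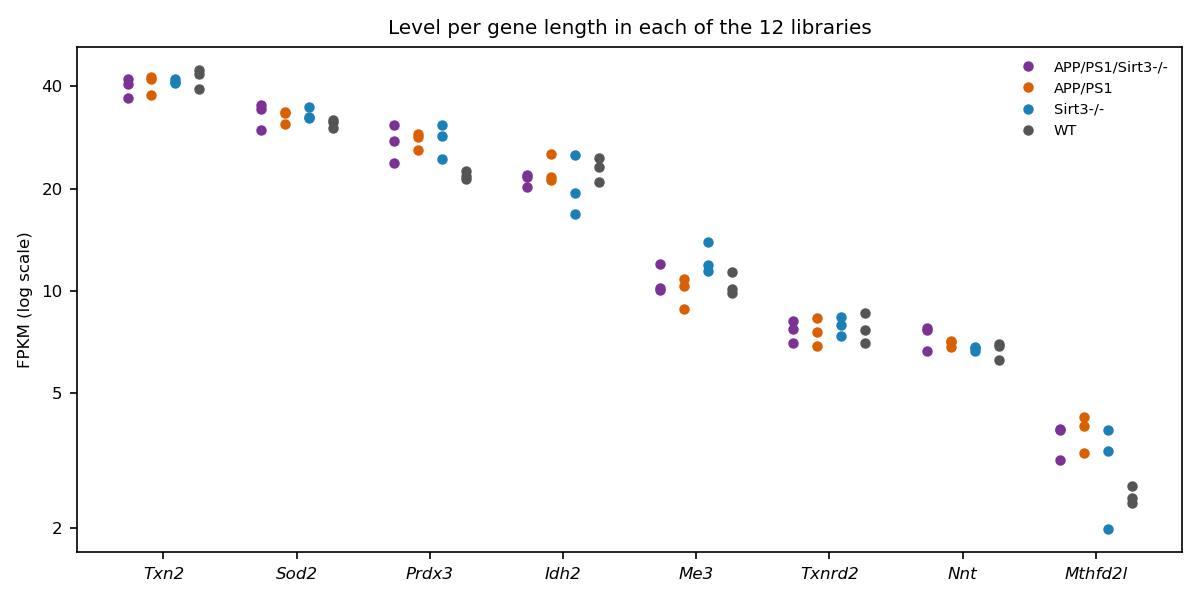
FPKM (log scale) of the 8 genes in each of the 12 libraries, from the highest mean to the lowest, with the groups side by side within each gene. Txn2 spans 37.1 to 44.7 FPKM and Mthfd2l 1.98 to 4.24 FPKM, and the groups of each gene lie far closer together than the highest and lowest genes.

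Promoter sequence was available for 7 of the 8 genes (RefSeq, GRCm38.p6, 250 bases before to 50 after the start). Both strands were searched for the GC box GGGCGG, the antioxidant response element core TGACNNNGC, the NRF1 motif and the oestrogen-related receptor motif AAGGTCA. The GC box was present in 6 of 7 members and in 35.7% of 32851 promoters of this length, Me3 being the member without one. The others were in 0 of 7 members and in 12.4%, 4.60% and 4.72% of all promoters. Shown are 130 bases upstream of the start of Prdx3 and Mthfd2l, the members nearest to the threshold, and of Sod2, the member with the most GC boxes, with each GC box in capitals on either strand (chr19:60874539-60874668, minus strand, chr5:90931066-90931195 and chr17:13007709-13007838, plus strand).
Prdx3: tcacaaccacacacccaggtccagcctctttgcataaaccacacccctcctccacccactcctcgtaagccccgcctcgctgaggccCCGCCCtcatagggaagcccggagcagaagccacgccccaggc
Mthfd2l: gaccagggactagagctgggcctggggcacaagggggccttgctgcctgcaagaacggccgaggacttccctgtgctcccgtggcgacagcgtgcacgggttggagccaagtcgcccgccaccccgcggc
Sod2: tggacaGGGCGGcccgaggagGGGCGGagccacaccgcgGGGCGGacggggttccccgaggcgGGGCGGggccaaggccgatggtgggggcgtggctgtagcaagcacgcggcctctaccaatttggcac
Sod2 has 4 GC boxes in this window, Prdx3 has 1 and Mthfd2l has none, its single GC box lying 38 bases after the start. A match is a run of letters and was not tested as a binding site.

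Other genes of the pathway were counted from 5 lists, which held 8 to 13 genes each, all of them tested. Of 8 other mitochondrial genes for NADPH and folate, 0 were called in any comparison by edgeR or by DESeq2. At an unadjusted p under 0.05, 1 was higher in Sirt3-/- against WT (13.5% of all genes in either direction) and 0 in APP/PS1 against WT (17.0%). In APP/PS1/Sirt3-/- against WT 2 were higher and 1 lower (20.1%). Their median log2 fold changes in these comparisons were 0.00, 0.16 and 0.19, beside 0.00, 0.01 and 0.01 for all genes. Me2, the NAD-dependent malic enzyme, had 17.2 to 23.2 CPM in APP/PS1/Sirt3-/-, 17.0 to 23.5 CPM in APP/PS1, 22.6 to 28.4 CPM in Sirt3-/- and 16.4 to 18.8 CPM in WT (averaged deletion, log2 fold change 0.24, SE 0.10, adjusted p = 0.335). Shmt2, a serine hydroxymethyltransferase of the same folate pathway, had an averaged log2 fold change of -0.14 (SE 0.07, adjusted p = 0.454).

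Of 12 other mitochondrial peroxide, thiol and glutathione genes, 0 were called by edgeR in any comparison and 1 by DESeq2, which was Gpx1 in Sirt3-/- against WT. The lowest p of the averaged deletion belonged to Gpx1, a glutathione peroxidase of cytosol and mitochondria. It had 62.8 to 78.1 CPM in APP/PS1/Sirt3-/-, 60.3 to 71.6 CPM in APP/PS1, 72.4 to 82.7 CPM in Sirt3-/- and 54.5 to 62.9 CPM in WT (log2 fold change 0.22, SE 0.07, adjusted p = 0.203). Srxn1, a sulfiredoxin that repairs oxidised peroxiredoxins, had an averaged log2 fold change of 0.13 (SE 0.06, adjusted p = 0.381). At an unadjusted p under 0.05, 2 of the 12 were higher in Sirt3-/- against WT (13.5% of all genes in either direction) and 2 in APP/PS1 against WT (17.0%). In APP/PS1/Sirt3-/- against WT 3 were higher and 1 lower (20.1%).

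Of 13 other SIRT3 substrates 0 were called by edgeR. At an unadjusted p under 0.05 there were 0, 0 and 2 (1 higher, 1 lower) in Sirt3-/-, APP/PS1 and APP/PS1/Sirt3-/- against WT. The shares of all genes in these comparisons were 13.5%, 17.0% and 20.1% in either direction. DESeq2 on all 12 libraries called 1 substrate, Sdha in APP/PS1/Sirt3-/- against WT. Acss1, a mitochondrial acetyl-CoA synthetase, had the lowest p of the averaged deletion (log2 fold change -0.13, SE 0.08, adjusted p = 0.581), before Sdha, a subunit of succinate dehydrogenase (0.07, SE 0.05, adjusted p = 0.602). Of 8 general mitochondrial genes 0 were called by edgeR, with 3, 2 and 2 higher at an unadjusted p under 0.05 in the same comparisons. DESeq2 on all 12 libraries called Vdac1, the pore of the outer membrane, in APP/PS1 and in APP/PS1/Sirt3-/- against WT, and Hspd1, the matrix chaperonin, in the second of these. Their median log2 fold change was 0.04 in Sirt3-/- against WT, 0.10 in APP/PS1 against WT and 0.09 in APP/PS1/Sirt3-/- against WT. Tomm20, an import receptor of the outer membrane, had an averaged log2 fold change of 0.12 (SE 0.04, adjusted p = 0.318) and Hspd1 one of 0.13 (SE 0.05, adjusted p = 0.335).

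Cytosolic counterparts were the only one of the 5 lists with genes called by edgeR, 2 of 13 higher and 0 lower in APP/PS1/Sirt3-/- against WT (1.13% of all genes called in either direction). At an unadjusted p under 0.05, 1 of the 13 was higher in Sirt3-/- against WT, 8 in APP/PS1 against WT and 6 in APP/PS1/Sirt3-/- against WT, and 0 were lower (13.5%, 17.0% and 20.1% of all genes in either direction). Their median log2 fold changes in these comparisons were 0.11, 0.19 and 0.19. DESeq2 on all 12 libraries called 3, Me1, Txnrd1 and G6pdx, in APP/PS1/Sirt3-/- against WT, and edgeR on APP/PS1 and WT alone called 2, Me1 and Prdx1. Over all genes these fits called 1050 and 1089. Me1, the cytosolic malic enzyme, had 46.1 to 57.7 CPM in APP/PS1/Sirt3-/-, 45.6 to 50.3 CPM in APP/PS1, 39.4 to 45.5 CPM in Sirt3-/- and 38.0 to 39.97 CPM in WT. It rose in APP/PS1/Sirt3-/- against WT with a log2 fold change of 0.40 (SE 0.09, adjusted p = 0.0488, edgeR). Txnrd1, the cytosolic thioredoxin reductase, had 75.4 to 82.4 CPM in APP/PS1/Sirt3-/-, 70.8 to 79.0 CPM in APP/PS1, 70.8 to 74.4 CPM in Sirt3-/- and 64.2 to 65.0 CPM in WT. It rose in APP/PS1/Sirt3-/- against WT by 0.28 (SE 0.06, adjusted p = 0.0488). Both calls lie at the threshold. Of 23 alternatives, 9 kept the call of Me1 (log2 fold changes 0.30 to 0.56) and 7 that of Txnrd1 (0.23 to 0.31). With 1 library left out at a time the adjusted p was 0.0119 to 0.164 for Me1 and 0.0188 to 0.174 for Txnrd1 (edgeR). Leaving out any single WT library ended both calls, with adjusted p of 0.103, 0.150 and 0.164 for Me1 and 0.110, 0.142 and 0.165 for Txnrd1 without WT library 1, 2 or 4. In this comparison those fits called 9, 2 and 2 genes in all, against 188 with all 12 libraries. The fit without the 3 libraries that go against their labels, also among the 23 alternatives, kept only library 2 of APP/PS1/Sirt3-/-. No p is given for that fit. With the striatal, thalamic and choroid plexus means as covariates the adjusted p was 0.936 for Me1 and 0.940 for Txnrd1. That fit called 2 genes in all in this comparison. With the cortical mean as a covariate neither passed the threshold (adjusted p = 0.367 for Me1), and 8 genes were called in all.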

How the data were processed

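Brain cortex of 4 genotypes was sequenced in 12 libraries, 3 a group, and groups were taken from the library titles. Alignment was to GRCm38 (mm10) with TopHat, and the authors deposited whole-number counts for each gene. Neither the counter nor the annotation release is named in the sources used here. FPKM was deposited by the authors too, and 100% of 257120 values equal the reads scaled to gene length and to all reads in genes (tolerance 0.1%). Normalised group means, log2 fold changes and p-values of the authors' own DESeq2 comparisons are in the same table and were not used.

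Counts were analysed with edgeR 4.0.16 (R 4.3.3). The 16673 genes passing filterByExpr were normalised by TMM, and 1 quasi-likelihood model (glmQLFit, robust) was fitted to the 4 group means of all 12 libraries. P-values of 7 contrasts were adjusted over the 16673 genes by the Benjamini-Hochberg method at 0.05. The averaged deletion is the mean of Sirt3-/- against WT and APP/PS1/Sirt3-/- against APP/PS1, and the interaction is the second less the first. CPM use TMM library sizes, and log2 CPM a prior count of 2. An exact permutation test of 3 against 3 cannot give a p below 0.1, so none is given. Correlations of members used 100000 permutations of the libraries (numpy 2.4.6). The steps were tested on simulated counts. No pair of libraries within a group was a duplicate, and pairs across groups were not checked for this.

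The members and lists were chosen with earlier results of these data known. Named are all members, Sirt3, App, the list members that passed in a comparison (otherwise the 2 with the lowest p of the averaged deletion), and the 5 genes most correlated with Nnt. Vdac1, G6pdx and Prdx1 were named after their values were seen. Some genes beside or overlapping the members are not reported here. Alternatives were DESeq2 1.42.0, RLE normalisation, no filter or a stricter one (at least 1 CPM in each of 12 libraries), a block for the title number, leaving out 1 library at a time, fitting 2 groups alone, without the 3 libraries at odds with their labels, and marker means as covariates. DESeq2 on 2 groups, Xist or cortical markers as a covariate, and all alternatives for Me1 and Txnrd1, were chosen after seeing the data. At this depth (15251720 to 18644376 reads) Mthfd2l rested on 73 to 163 reads a library. All intervals are 95%.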

Additional observations from a re-analysis of the deposited data

How the results depend on the processing

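The count of members called was 0 in all 7 comparisons, and stayed 0 under all 23 alternatives (21 for the averaged deletion and the interaction) apart from APP/PS1 against WT and APP/PS1/Sirt3-/- against WT. In APP/PS1 against WT it was 2 with edgeR on only the 2 groups compared, which called 1089 genes in all against 0 in the fit of all 12 libraries. These were Prdx3 (log2 fold change 0.30) and Mthfd2l (0.58). In APP/PS1/Sirt3-/- against WT the count was 0 to 1 when libraries were left out in turn. The 1 was Prdx3 without APP/PS1/Sirt3-/- library 4, where 811 genes were called in all against 188 with all 12 libraries. With the marker means as covariates Mthfd2l was -0.10 in both comparisons (edgeR, unadjusted p = 0.76 and 0.762). These values cannot be told from 0, and the cause was not tested beyond that fit. Over the 56 pairs of a member and a comparison, 97 estimates changed sign under an alternative, 49 of them with a library left out. Of these only the 2 of Mthfd2l had an unadjusted p under 0.05 on either side, which was in the fit without covariates. None of the 97 was therefore counted as a reversal. Some were not small. With the same covariates Mthfd2l was -0.09 in place of 0.28 in Sirt3-/- against WT and 0.09 in place of -0.34 in the interaction. Me3 was then 0.16 in place of -0.11 in APP/PS1 against WT. Leaving out the 3 libraries that go against their labels gave 0.16 in place of -0.01 for Prdx3 in APP/PS1/Sirt3-/- against APP/PS1. This last value rested on library 2 of APP/PS1/Sirt3-/- alone.

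The title numbers were not taken as pairs, since deviations from the group means correlated between -0.112 and 0.228 for the 18 same-number pairs, not all above 0.1, and between -0.274 and 0.198 for the others. The libraries numbered 4, which share the Y-linked reads, correlated between 0.048 and 0.228. With the replicate block 0 members were called in every comparison, and Prdx3 in Sirt3-/- against WT had a log2 fold change of 0.33 (adjusted p = 0.191). Me1 and Txnrd1 missed the threshold with the block (adjusted p = 0.0646 and 0.055). Over all genes edgeR called 49, 0 and 188 in Sirt3-/-, APP/PS1 and APP/PS1/Sirt3-/- against WT with all 12 libraries and 113, 1089 and 752 with only the 2 groups compared, and DESeq2 called 433, 502 and 1050 with all 12 and 377, 1283 and 1137 with only the 2 groups. Spearman's rho in place of Pearson's r left 0 of the 5 genes most like Nnt. Mthfd2l, with 73 to 163 reads a library, had the widest interval of the members in Sirt3-/- against WT (95%, 0.897 to 1.64-fold).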
